A study of Homo sapiens with 9 samples.

Results

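A549 cells on low-attachment plates were compared with and without FP001, a medium additive known here only by its code name. The 2 groups were 3 arrays of cells on low-attachment 96-well plates in DMEM with 10% FBS and Milli-Q water, called normal medium here, and 3 arrays of cells on the same kind of plate in that medium with 0.015% (w/v) FP001. All cells were cultured for 5 days, so both groups share the plate, the serum and the time, and differ by FP001 or water. A549 is an established human line from a lung adenocarcinoma, grown here as a single line. The members were chosen by their sample titles, and they make up 6 of the 9 arrays in the series. The other 3 arrays came from cells in normal medium on ordinary plates. No source used here states that the replicates were cultured separately, so the spread behind the p-values may be a technical one.

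Epithelial cells that lose contact with a surface receive fewer signals from integrins, and many stop dividing or die, a process known as anoikis. Carcinoma cells can go on growing as floating clusters, in which cells in the middle receive less oxygen. A549 cells also transcribe a set of genes best known from the liver, among them fibrinogen chains, complement factors and metal carriers, along with detoxifying enzymes.

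Each array gave 1 intensity per probe set on a linear scale. The labels name a kit for the 3′ ends of transcripts, whereas many probe sets name microRNA, snaR and other short non-coding genes, so which part of a transcript a value reads is uncertain. Array medians lay between 23.6 and 24.1 and rank correlations between the 6 arrays between 0.976 and 0.985. A gene was tested where its named probe set reached the array median on at least 3 of the 6 arrays, which left 10799 genes. Log2 fold changes are FP001 over normal medium, with the standard error (SE) from limma, and a gene was called at a Benjamini-Hochberg adjusted p under 0.05. The fit was made without and with the replicate number as a block, that is, as 3 pairs of arrays. Both fits give the same fold change for a gene and differ in its error. No label used here names a pairing, and the numbers were taken to pair the samples from these same data. Deviations of same-numbered arrays from their group means correlated across genes at 0.49, 0.31 and 0.23 for numbers 1, 2 and 3. Differently numbered arrays gave values between -0.36 and 0.14. Deviations within a group cancel out, so these correlations are not independent of each other. Every result with the block rests on this inferred pairing. With 3 arrays a group, precision is limited throughout.

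**Figure D1:**
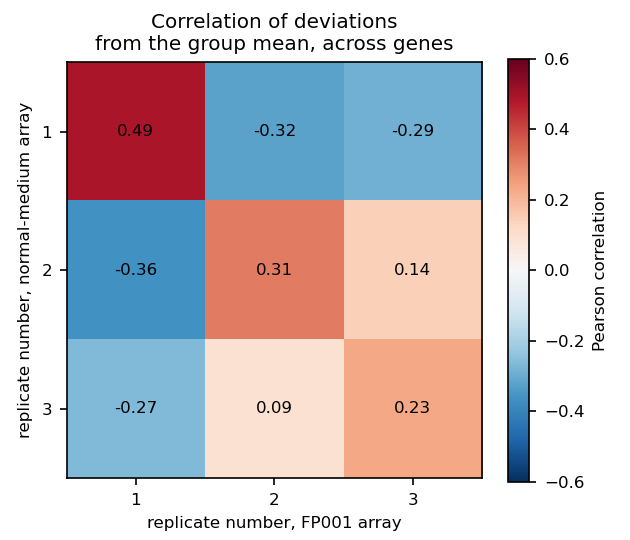
Pearson correlation, across 10799 genes, of each normal-medium array's deviation from its group mean (rows, replicate number) with that of each FP001 array (columns). The same-numbered arrays on the diagonal gave 0.49, 0.31 and 0.23, each above every other value in its row and column.

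With FP001, complement C3 and C5, fibrinogen alpha chain FGA, the anticoagulant protein S gene PROS1, the mitophagy receptor BNIP3L, the laminin receptor BCAM and the interferon-induced membrane protein IFITM1 were lower. The non-coding RNA genes SNAR-H and SNAR-B1 and the AP-1 subunit JUN were higher. These 10 genes, 0.0926% of the 10799 tested, were the calls without the block (limma, 3 higher, 0.0278%, and 7 lower, 0.0648%). Without adjustment, 1230 genes had a p under 0.05. With the replicate block 478 genes were called, 4.43% of those tested, with 183 higher (1.69%) and 295 lower (2.73%). All 10 were among them. With arrays centred on their medians the blocked split was 272 higher and 256 lower.

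The changes were small. Only 4 of the genes tested were at least 2-fold higher and 6 at least 2-fold lower, and each of these was called with the block. Among the blocked calls, 22 were at least 1.5-fold higher and 53 at least 1.5-fold lower. Over all genes the median log2 fold change was 0.0066, and the values from the 5th to the 95th percentile ran from -0.29 to 0.25. In 372 of the blocked calls, 135 higher and 237 lower, the 3 FP001 arrays lay wholly above or below the 3 normal-medium arrays. Over all genes tested, 8.53% did not overlap with FP001 higher and 9.03% with FP001 lower. In all 478 blocked calls the 3 pairs moved one way, so agreement of the pairs adds nothing to such a call. Over all genes tested, 20.9% had all 3 pairs higher and 20.7% all 3 lower. In the text below, "rose" and "fell" mean called with the block, and the adjusted p without it is given where a gene is described in full. Each count of list members that rose or fell stands against 1.69% and 2.73% of all genes tested.

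**Figure D2:**
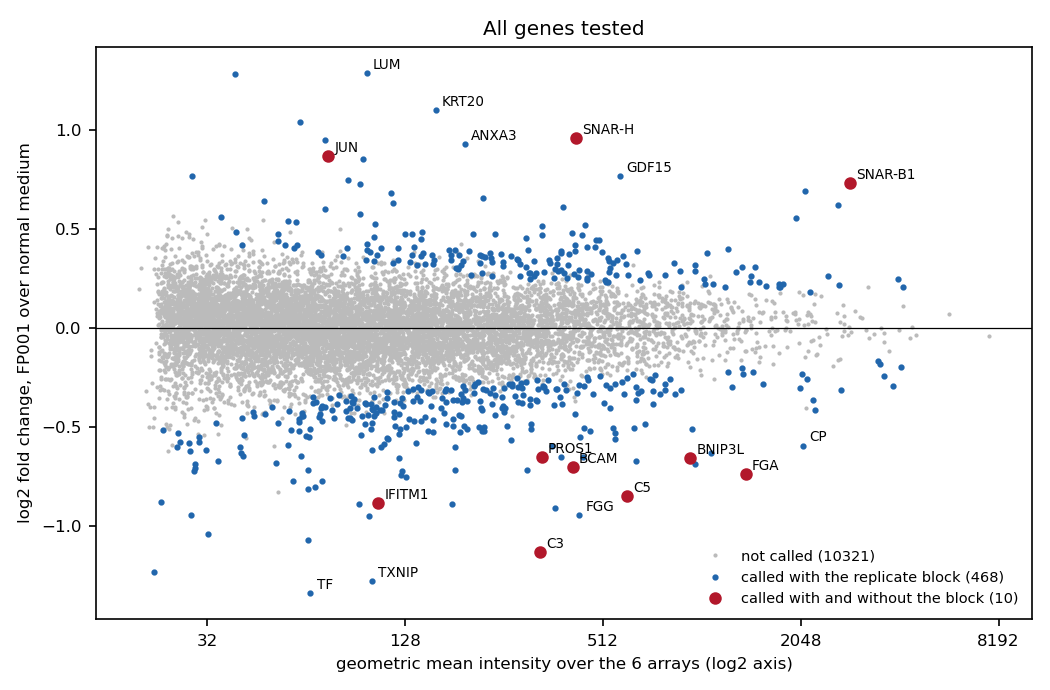
Each point is 1 gene, with its geometric mean intensity over the 6 arrays (horizontal, log2 axis) and its log2 fold change, FP001 over normal medium (vertical). Red points are the 10 genes called with and without the replicate block and blue points the 468 called with the block alone, and 7 of the red points lie below 0.

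The number of calls depended on single arrays. Leaving out 1 array at a time without the block gave 12 calls without normal-medium replicate 1, 1 and 2 without replicates 2 and 3, and 5, 1 and 1 without FP001 replicates 1, 2 and 3. C3 stayed called each time, at adjusted p between 0.0111 and 0.048. With the block, leaving out number 1, 2 or 3 gave 442, 430 and 949 calls, of which 345, 307 and 426 were among the 478. These fits keep few arrays, so their p-values lean heavily on the variance prior estimated over all genes. For C3 the adjusted p in limma went from 2.24e-05 with all numbers to 8.86e-20 without number 3. A call kept or lost in such a fit is therefore a rough guide. Under 13 alternatives to the blocked fit, these leave-out fits included, 21 of the 478 genes were called every time they were tested. The 17 lower ones were C3, C5, CFB, CFD, FGA, FGG, HABP2, PROS1, CP, TF, BNIP3L, BCAM, IFITM1, SUCNR1, UPK1A, MIR21 and LINC01347. GDF15, ANXA3, SNAR-H and SNAR-B1 were the 4 higher ones. SUCNR1 reached the array median on the normal-medium arrays alone, so it could not be tested under the filter on all 6 arrays.

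**Figure D3:**
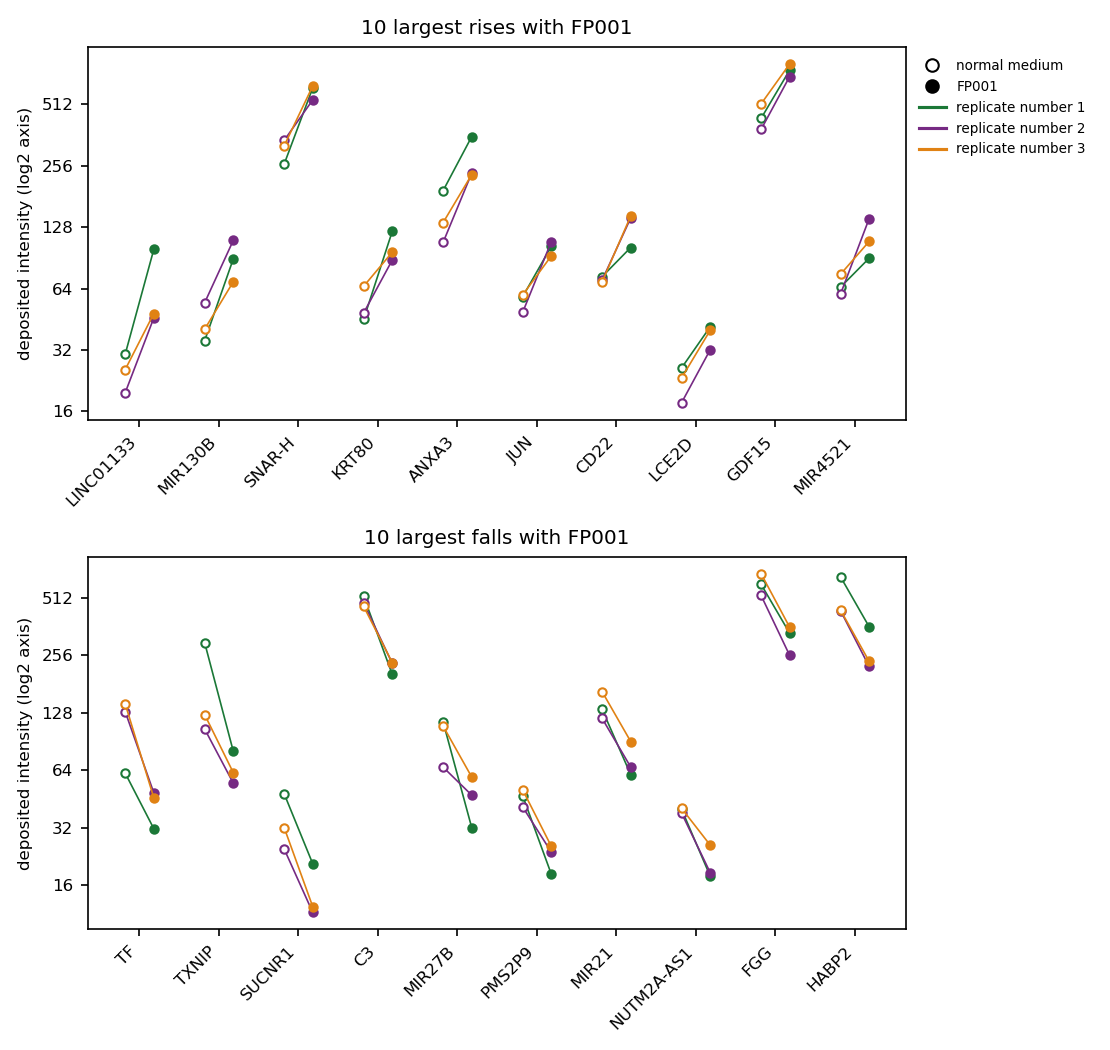
Deposited intensity (log2 axis) of the 10 largest rises and the 10 largest falls among called genes whose groups do not overlap. Open points are normal medium and filled points FP001, with a line joining arrays of the same replicate number. Because genes without overlap were chosen, every line of the upper panel goes up and every line of the lower panel goes down.

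Complement is a cascade of plasma proteins that tags and lyses targets, with C3 as its central component. C3 stood at 522, 481 and 462 on the normal-medium arrays and at 203, 232 and 235 on the FP001 arrays. The groups were far apart, and C3 was 2.19-fold lower with FP001 (log2 -1.13, SE 0.0886, adjusted p = 0.00394 in limma, and 2.24e-05 with the block). C5, which starts the membrane attack complex, stood at 856, 840 and 745 against 422, 459 and 474. It was 1.80-fold lower (log2 -0.85, adjusted p = 0.0133, and 6.15e-05 with the block). Of 12 complement genes tested, a list added after the values were seen, 5 fell (41.7%, against 2.73% of all genes) and 0 rose. The median was -0.18. Factor B, CFB, and factor D, CFD, the 2 proteases of the alternative pathway, fell by 0.74 and 0.65 on the log2 scale with no overlap between groups. The inhibitory protease CFI fell by 0.62 but lost its call without number 1 (adjusted p = 0.103). C2, C4A and C4B of the classical pathway were not called, with log2 fold changes of -0.20, -0.13 and -0.15.

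Fibrinogen is built from 3 chains, encoded by FGA, FGB and FGG side by side on chromosome 4, and is cleaved by thrombin to form fibrin. FGA stood at 1693, 1723 and 1997 in normal medium and at 1033, 987 and 1231 with FP001, and fell 1.67-fold (adjusted p = 0.0405 in limma without the block, 2.24e-05 with it). FGG stood at 603, 527 and 685 against 334, 256 and 359, and fell 1.92-fold (adjusted p = 0.0599 without the block, 2.24e-05 with it). FGB stood at 1808, 1090 and 1287 against 1235, 664 and 830. Its groups overlapped, because number 1 was high in both, and its 1.55-fold fall was called with the block alone (adjusted p = 0.363 without it, 6.15e-05 with it). FGB lost its call in limma with attachment replicates 2 and 3 in the blocked fit (adjusted p = 0.127). It also lost it with the number as a random block (0.0965). All 3 chains thus fell with the block, and all 3 pairs were lower for each, as for every gene that fell.

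The upstream regions of the 3 fibrinogen genes are shown because these neighbours moved together. They are the 250 bases before each gene's start in RefSeq (GRCh38.p14), 5′ to 3′ on the gene's strand, with each CTGGGA in capitals, or TCCCAG where it lies on the other strand. This motif is known from acute-phase genes that respond to interleukin-6. FGA is at chr4:154590743-154590992 on the minus strand, FGB at chr4:154562730-154562979 on the plus strand and FGG at chr4:154612657-154612906 on the minus strand.
FGA: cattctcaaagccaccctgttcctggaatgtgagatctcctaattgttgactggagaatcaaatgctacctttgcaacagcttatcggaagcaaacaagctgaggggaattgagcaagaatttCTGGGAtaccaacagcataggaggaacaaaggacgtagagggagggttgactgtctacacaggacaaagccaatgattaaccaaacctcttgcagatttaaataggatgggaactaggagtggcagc
FGB: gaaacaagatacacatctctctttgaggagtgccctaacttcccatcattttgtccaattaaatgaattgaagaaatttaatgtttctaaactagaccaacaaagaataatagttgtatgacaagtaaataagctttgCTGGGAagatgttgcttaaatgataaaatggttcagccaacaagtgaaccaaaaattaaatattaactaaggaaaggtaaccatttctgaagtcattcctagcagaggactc
FGG: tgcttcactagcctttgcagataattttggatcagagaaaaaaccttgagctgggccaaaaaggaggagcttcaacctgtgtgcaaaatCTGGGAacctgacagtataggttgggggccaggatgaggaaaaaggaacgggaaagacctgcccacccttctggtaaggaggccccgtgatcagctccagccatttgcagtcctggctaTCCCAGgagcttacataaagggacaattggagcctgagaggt
The motif occurred once before FGA and FGB, starting 127 and 112 bases ahead of the gene's start, and at 161 and 42 bases before FGG. It is common: 28.8% of 27305 such regions hold it on either strand, against 8 of the 16 genes of the liver-type list that have a region in the table. Of that list 8 of 20 genes tested fell, so the share describes the list and not the response to FP001. A match is not a measured binding site.

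Other coagulation genes fell as well. HABP2, a plasma protease that binds hyaluronan, stood at 659, 438 and 441 against 361, 224 and 238, a 1.88-fold fall (adjusted p = 0.171 in limma without the block, 2.24e-05 with it). PROS1 stood at 384, 450 and 421 against 261, 262 and 275, a 1.57-fold fall (adjusted p = 0.0280 without the block, 0.0003 with it). TFPI, the inhibitor of tissue factor, fell by 0.50 on the log2 scale. Of 16 coagulation and fibrinolysis genes tested, also a list added after the values were seen, 8 fell (50%, against 2.73% of all genes) and 0 rose. The median was -0.31, or -0.19 without normal-medium replicate 1. Prothrombin F2, F7 and F10 were not called, at -0.21, -0.25 and 0.03. Pro- and anticoagulant genes were both among those that fell.

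**Figure D4:**
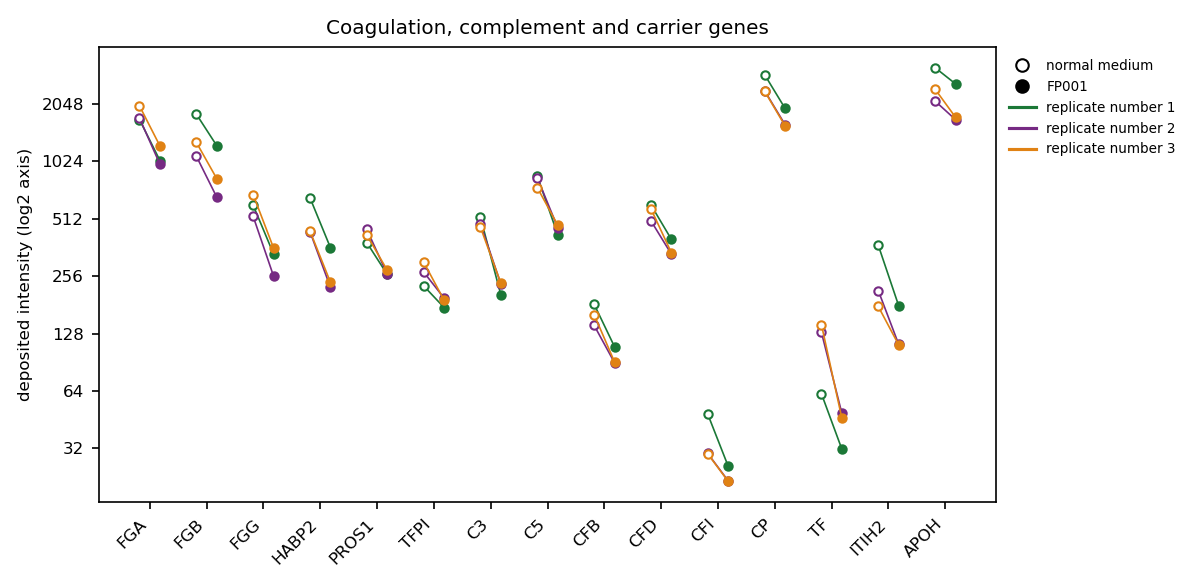
Deposited intensity (log2 axis) of coagulation, complement and carrier genes, open points for normal medium and filled points for FP001, joined by replicate number. Every line goes down, and number 1 was the highest of both groups for HABP2, CP and ITIH2 and the lowest of both for TF.

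Carriers of iron and copper were lower too. Transferrin, TF, the iron carrier of plasma, showed the largest fall of all genes tested. It stood at 61.9, 130 and 143 in normal medium and at 31.7, 48.9 and 46.0 with FP001, without overlap, a 2.53-fold fall (adjusted p = 0.171 in limma without the block, 9.86e-05 with it). Ceruloplasmin, CP, the copper oxidase of plasma, stood at 2909, 2396 and 2384 against 1938, 1592 and 1569, a 1.51-fold fall (adjusted p = 0.107 without the block, 3.5e-05 with it). The copper- and zinc-binding metallothioneins MT1F and MT1X fell by 0.51 and 0.48 on the log2 scale, 2 of 5 tested in a list added after the values were seen. Over the 20 liver-type secreted genes tested, 8 fell (40%, against 2.73% of all genes) and 0 rose. In this list 15 were lower and the median was -0.23, with pair medians of -0.25, -0.24 and -0.38. ITIH2, which binds hyaluronan, and APOH, which binds phospholipid, fell by 0.89 and 0.37. The list was not lower throughout: APOA1, APOE, HPX and TTR lay between -0.04 and 0.01 and were not called.

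Detoxifying and redox enzymes gave a mixed group with large falls. Of 13 xenobiotic and redox genes tested, 5 fell (38.5%, against 2.73% of all genes) and 1 rose (7.69%, against 1.69%), and the median was -0.26. It was -0.04 without normal-medium replicate 1 and -0.15 without FP001 replicate 3. TXNIP, which binds and inhibits thioredoxin and is induced by glucose, stood at 298, 105 and 125 against 80.6, 54.9 and 62.3, a 2.42-fold fall (adjusted p = 0.215 in limma without the block, 0.000684 with it). Number 1 was high in normal medium, and its pair fell most, 3.70-fold against 1.92-fold and 2.01-fold for numbers 2 and 3. GSTA1, a glutathione transferase, FMO5, a flavin monooxygenase, and NNMT, which methylates nicotinamide, fell by 0.89, 0.55 and 0.55. GSTA1 and GSTA2 are near-identical, and GSTA2 fell by 0.77, so which of them a probe set read is uncertain. PRDX1, a peroxiredoxin, rose by 0.20. Among 10 targets of NRF2, the regulator of antioxidant genes, 2 rose and 0 fell. Those 2 were carbonyl reductase CBR3, at 0.40, and heme oxygenase HMOX1, at 0.27. CBR3 lost its call without number 1 or 2 (adjusted p = 0.0815 and 0.155), and HMOX1 without number 2 (0.117).

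Genes of the hypoxia response, which HIF factors switch on at low oxygen, were mostly lower with FP001, though most were not called. Of 18 tested, 4 fell (22.2%, against 2.73% of all genes) and 0 rose. In this list 15 were lower, whereas 51.8% of all genes had a higher mean, and the list median was -0.16. It was -0.10 without normal-medium replicate 2 and -0.09 without FP001 replicate 1. BNIP3L, a receptor that marks mitochondria for autophagy, stood at 1148, 1164 and 1245 against 736, 745 and 772, a 1.58-fold fall (adjusted p = 0.0133 in limma without the block, 4.14e-05 with it). The related BNIP3 stood at 909, 892 and 1068 against 800, 731 and 740, and fell 1.26-fold (adjusted p = 0.215 without the block, 0.0173 with it). DDIT4, an inhibitor of mTORC1, and HILPDA, a lipid droplet protein, fell by 0.40 and 0.39 on the log2 scale, and HILPDA lost its call without number 2 (adjusted p = 0.111). VEGFA, the angiogenic factor, was not called at -0.16. Of 9 glycolytic genes tested, PGK1 and GPI fell, by 0.39 and 0.29, 0 rose, and the median was -0.14.

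The region before BNIP3 is shown for the core letters of the HIF response element, ACGTG. It is chr10:131981924-131982173 on the minus strand (RefSeq, GRCh38.p14), 5′ to 3′, with the matches on both strands in capitals.
BNIP3: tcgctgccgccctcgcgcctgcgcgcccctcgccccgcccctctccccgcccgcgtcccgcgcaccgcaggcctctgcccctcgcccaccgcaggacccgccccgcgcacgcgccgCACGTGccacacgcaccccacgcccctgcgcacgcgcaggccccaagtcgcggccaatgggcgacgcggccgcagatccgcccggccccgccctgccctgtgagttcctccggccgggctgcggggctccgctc
The capitals hold 2 overlapping matches, 1 on each strand, starting 134 and 133 bases before the gene's start. Of 27305 such regions, 18.7% hold ACGTG on either strand, against 8 of the 14 genes of the hypoxia list that have a region in the table. The list holds genes known to respond to HIF, and 4 of its 18 genes tested fell, so this share describes the list and not the response to FP001. This is a description of letters, not of binding.

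Genes of DNA replication were higher with FP001 throughout the list. Of 24 tested, all 24 were higher, against 51.8% of all genes, and 11 rose (45.8%, against 1.69%) and 0 fell with the block. None was called without it. The median was 0.27, with pair medians of 0.34, 0.19 and 0.24. Without normal-medium replicate 1 it was 0.17. PCNA, the sliding clamp of the polymerases, stood at 1096, 1510 and 1430 against 1576, 1714 and 1664, a 1.24-fold rise without overlap (adjusted p = 0.363 in limma without the block, 0.0212 with it). TYMS, which makes thymidylate, stood at 477, 618 and 626 against 707, 761.8 and 769, a 1.31-fold rise (adjusted p = 0.256 without the block, 0.00748 with it). MCM10 and CDC45, which help to start the replication fork, rose by 0.40 and 0.39, and the checkpoint adaptor CLSPN by 0.36. Without number 1, CDC45 and CLSPN lost their calls (adjusted p = 0.152 and 0.212). In normal medium, number 1 was the lowest of the 3 arrays for PCNA, TYMS, MCM10, CDC45 and CLSPN.

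Of the genes of mitosis all 29 tested were higher, against 51.8% of all genes, and 5 rose (17.2%, against 1.69%) and 0 fell. The median was 0.20, with pair medians of 0.31, 0.13 and 0.17. Without normal-medium replicate 1 the median was 0.07. Cyclin A2, CCNA2, stood at 427, 510 and 498 against 579, 627 and 602, a 1.26-fold rise without overlap (adjusted p = 0.215 in limma without the block, 0.00962 with it). The spindle checkpoint kinase TTK, the passenger protein BIRC5 and the spindle protein NUSAP1 rose by 0.33, 0.33 and 0.27, and TTK lost its call without number 1 (adjusted p = 0.0754). The proliferation marker MKI67 stood at 724, 999 and 780 against 799, 1058 and 1043, and was not called (limma log2 0.21, adjusted p = 0.0946 with the block). In bulk RNA, more cells of a kind and more RNA per cell cannot be told apart.

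The AP-1 transcription factors are pairs of JUN, FOS and ATF proteins and are induced early by growth factors and stress. JUN stood at 58.3, 48.9 and 59.5 in normal medium and at 103, 108 and 92.3 with FP001, a 1.82-fold rise (adjusted p = 0.0262 in limma without the block, 0.000991 with it). Of 17 immediate early genes tested, 4 rose and 1 fell, and the median was 0.14, or 0.08 without normal-medium replicate 1. JUND, the phosphatase DUSP1 and the factor KLF2 rose by 0.34, 0.35 and 0.28, and JUND lost its call without number 2 (adjusted p = 0.0611) and KLF2 without number 1 or 2 (0.0886 and 0.204). JUNB fell by 0.36 but lost its call without number 2 or 3 (adjusted p = 0.0807 and 0.0867). FOS, the usual partner of JUN, stood at 93.1, 86.3 and 110 against 109, 90.5 and 106 and was not called. The JUN subunits thus moved apart from each other, and FOS overlapped between groups.

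The region before JUN is shown for TGACATCA, an AP-1-like site known from this gene's own promoter. It is chr1:58784048-58784297 on the minus strand (RefSeq, GRCh38.p14), 5′ to 3′, with the match in capitals.
JUN: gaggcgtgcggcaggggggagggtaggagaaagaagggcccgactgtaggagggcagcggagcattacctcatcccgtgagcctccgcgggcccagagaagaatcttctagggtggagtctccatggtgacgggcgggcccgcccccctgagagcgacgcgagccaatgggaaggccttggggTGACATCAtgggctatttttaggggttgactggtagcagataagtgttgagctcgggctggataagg
The match starts 67 bases before the gene's start, and 2.45% of 27305 such regions hold it on either strand.

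GDF15, a secreted stress cytokine of the TGF-beta family, was among the brightest of the large rises. It stood at 436, 385 and 513 in normal medium and at 752, 700 and 806 with FP001, a 1.70-fold rise (adjusted p = 0.0513 in limma without the block, 4.96e-05 with it). GDF15 is a p53 target, yet of 12 p53 targets tested it alone rose, TP53INP1 fell by 0.37, and the median was 0.05. TP53INP1 lost its call without number 1 (adjusted p = 0.0827). The microRNA gene MIR3189 lies within GDF15. It stood at 63.7, 36.9 and 58.9 against 35.1, 41.1 and 49.2, and was not called (log2 -0.32, adjusted p = 0.284 with the block). ANXA3, a calcium-dependent membrane-binding annexin, stood at 193, 108 and 135 against 355, 235 and 231, a 1.90-fold rise (adjusted p = 0.190 without the block, 7.73e-05 with it).

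Of 20 epithelial junction and keratin genes tested, 4 keratins rose and 4 junction or adhesion genes fell, and the median was 0.03. KRT7, KRT8 and CLDN4 were not called. KRT20, a keratin of gut epithelium, stood at 211, 74.5 and 81.2 against 420, 144 and 208. All 3 pairs rose, as they did for every gene called higher with the block. Number 1 stood far above the other 2 in both groups, and the groups overlapped. The 2.14-fold rise was called with the block alone (adjusted p = 0.399 in limma without it, 5.79e-05 with it). KRT80 stood at 45.2, 48.6 and 65.6 against 122, 88.2 and 96.4 without overlap, a 1.93-fold rise (adjusted p = 0.0916 without the block, 0.00291 with it). KRT19 and the bright KRT18 rose by 0.52 and 0.25. KRT18 lost its call when the probe sets of a gene were averaged (adjusted p = 0.139 in limma with the block). The falls were desmoplakin DSP, at -0.50, the adhesion molecule EPCAM, at -0.44, TJP1 of tight junctions, at -0.24, and plakoglobin JUP, at -0.22. TJP1 lost its call without number 1 or 2 (adjusted p = 0.0846 and 0.118), and JUP without number 2 (0.0919). BCAM, which binds laminin, stood at 566, 495 and 528 against 347, 307 and 322, and was lower in both fits (log2 -0.70, adjusted p = 0.0262 without the block, 6.15e-05 with it). None of the 10 integrin and focal adhesion genes tested was called.

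Among 20 mucosal and secretory genes tested, 5 rose and 1 fell, and the median was 0.16. The median depended on single arrays: it was 0.35, 0.06 and 0.06 without normal-medium replicates 1, 2 and 3, and 0.01 and 0.30 without FP001 replicates 1 and 2. The protein disulfide isomerase AGR3 and the adhesion molecule CEACAM6 rose by 0.72 and 0.56, and lysozyme LYZ by 0.34, while CEACAM1 fell by 0.37. CEACAM6 stood at 3343, 903 and 1432 against 3502, 1740 and 2259, so number 1 was high in both groups and moved least. AGR3 and CEACAM6 overlapped between groups and were called with the block alone (adjusted p = 0.624 and 0.650 in limma without it). With the block, CEACAM6 lost its call under quantile normalization (adjusted p = 0.0505). AGR3 lost its call with attachment replicates 2 and 3 in the blocked fit (adjusted p = 0.0819). LYZ lost its call without number 1 or 3 (adjusted p = 0.152 and 0.0976). Lumican, LUM, a proteoglycan of the matrix, gave the largest rise of all genes tested, 2.44-fold, from 247, 24.0 and 41.5 to 437, 79.0 and 103. Its groups overlapped, and it was called with the block alone (adjusted p = 0.597 in limma without it, 0.0003 with it). Of 13 matrix genes tested, fibronectin FN1 fell by 0.31, and LUM and thrombospondin THBS1 rose. FN1 overlapped between groups and lost its call under quantile normalization (adjusted p = 0.0753 in limma with the block). THBS1 lost its call without number 2 or 3 (adjusted p = 0.177 and 0.0832).

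Inflammatory genes divided. Of 12 tested, the chemokines CXCL5 and CXCL2 and the prostaglandin synthase PTGS2 rose, C3 and CFB fell, and the median was 0.06, or 0.0047 without normal-medium replicate 3 and 0.03 without FP001 replicate 1. CXCL5 stood at 2351, 1400 and 1389 against 3563, 2185 and 2475, with overlap, a 1.62-fold rise (adjusted p = 0.313 in limma without the block, 4.14e-05 with it). CXCL2 and PTGS2 rose by 0.53 and 0.38, and CXCL2 lost its call without number 2 (adjusted p = 0.0784). Of 15 interferon-stimulated genes tested, 4 fell, 0 rose, and the median was -0.05, with its sign turned (0.02) without FP001 replicate 2 and -0.15 without FP001 replicate 3. IFITM1 stood at 153, 127 and 153 against 81.1, 69.6 and 84.1, a 1.85-fold fall (adjusted p = 0.0262 without the block, 9.66e-05 with it). IFITM2, IFITM3 and the signalling factor IRF9 fell by 0.69, 0.41 and 0.45, and IFITM3 lost its call without number 1 or 3 (adjusted p = 0.0734 and 0.0709). The IFITM genes are close copies, so signal shared between them is uncertain. ISG15, IFIT3 and MX2, at 0.03, 0.14 and 0.10, were not called.

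Of 16 cholesterol synthesis genes tested, 15 were higher, 4 rose and 0 fell, and the median was 0.13. It was 0.19 without normal-medium replicate 1, and 0.03 and 0.20 without FP001 replicates 1 and 2. ACAT2, which makes acetoacetyl-CoA, stood at 227, 194 and 194 against 315, 264 and 274, a 1.39-fold rise without overlap (adjusted p = 0.171 in limma without the block, 0.00245 with it). HMGCS1, INSIG1 and EBP rose by 0.39, 0.37 and 0.28 with overlapping groups, and EBP lost its call without number 2 (adjusted p = 0.0738). In the fatty acid list of 15, 10 were higher and 5 lower, with a median of 0.05, or 0.0060 without normal-medium replicate 3. The elongase ELOVL6 and the desaturase SCD rose by 0.33 and 0.21, SCD losing its call without number 2 (adjusted p = 0.0987), and the acyl-CoA synthetase ACSL5 fell by 0.68. Of 9 respiratory chain genes tested, COX5A and COX4I1 rose by 0.22 and 0.20. Both lost their calls without number 1 (adjusted p = 0.0578 and 0.0854) and without number 2 (0.0875 and 0.110).

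**Figure D5:**
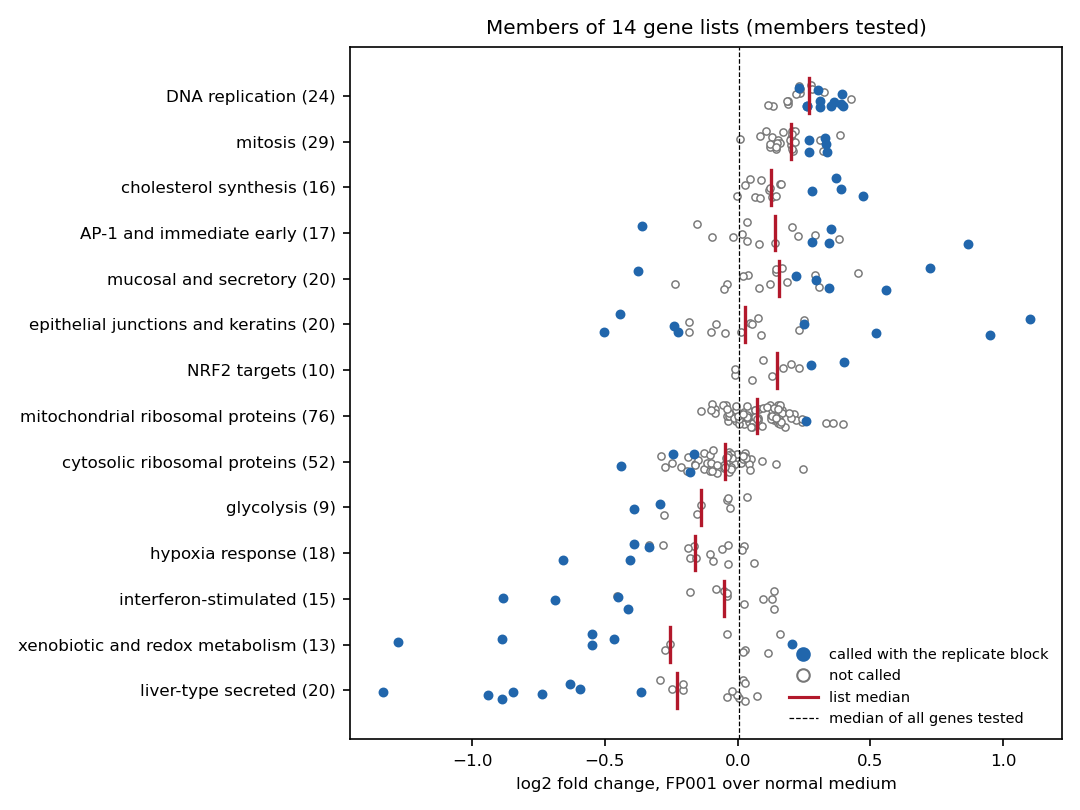
Log2 fold change, FP001 over normal medium, of each tested member of 14 gene lists, 1 point per gene. Filled points were called with the replicate block, red bars are list medians, and the dashed line is the median of all genes tested. All points of the replication and mitosis lists lie above 0, and the liver-type list reaches -1.34.

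Of 76 mitochondrial ribosomal protein genes tested, 60 were higher and the median was 0.07 (0.04 and 0.11 without normal-medium replicates 1 and 3), but 1 alone rose, a share below that of all genes, and 0 fell. Of 52 cytosolic ones 40 were lower, 4 fell and 0 rose, and the median was -0.05, with pair medians of -0.00092, -0.07 and -0.12, and -0.09 and -0.02 without normal-medium replicates 1 and 3. A group of translation factors and host genes of small nucleolar RNAs, which like the cytosolic ribosomal genes are known for transcripts that start with a pyrimidine tract, was added after the values were seen. Of its 16 genes tested 8 fell and 0 rose, and the median was -0.25. GAS5, a host gene, stood at 154, 162 and 192 against 110.5, 126 and 130, a 1.38-fold fall (adjusted p = 0.176 in limma without the block, 0.00689 with it). Translation factors EIF4B and EEF2 fell by 0.30 and 0.20, and both lost their calls without number 2 (adjusted p = 0.0723 and 0.191). Of 348 genes named ZNF, most of which encode zinc finger factors, 12 fell (3.45%) and 1 rose (0.29%). Over all genes tested 2.73% fell and 1.69% rose. In the ZNF list 229 were lower and the median was -0.07.

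The snaR genes are a primate family of short non-coding RNAs transcribed by RNA polymerase III. SNAR-H stood at 260, 340 and 320 in normal medium and at 616, 538 and 629 with FP001, a 1.94-fold rise (adjusted p = 0.0262 in limma without the block, 0.000148 with it). SNAR-B1 stood at 1939, 2347 and 2474 against 3759, 3611 and 3791, a 1.66-fold rise (adjusted p = 0.0262 without the block, 6.23e-05 with it). Of 8 snaR genes tested, taken as a list after the values were seen, 6 rose and 0 fell, and the median was 0.54. The copies are close to identical, so the 6 probe sets may read shared transcripts and are not 6 independent measurements. SNAR-I, the smallest of the rises, lost its call without number 1 or 3 (adjusted p = 0.166 and 0.0649).

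Among 369 microRNA genes tested, 7 rose (1.90%) and 8 fell (2.17%), and the median was 0.03. These shares lie near those of all genes tested, 1.69% and 2.73%, so the genes below are given as single genes. A probe set here reads RNA from the gene's locus and is no measure of the mature microRNA. The mature strands of 5 of the called genes are printed from RefSeq (GRCh38.p14), 5′ to 3′, with the seed, bases 2 to 8, in capitals, to show that no 2 of them share a seed.
miR-21-5p: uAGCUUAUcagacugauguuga
miR-27b-3p: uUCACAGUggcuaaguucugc
miR-31-5p: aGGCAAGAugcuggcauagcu
miR-130b-3p: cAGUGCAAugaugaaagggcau
miR-4521: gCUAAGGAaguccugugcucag
MIR21, the gene of a microRNA abundant in many carcinomas, stood at 134, 120 and 165 against 60.8, 66.6 and 90.7 without overlap, a 1.93-fold fall (adjusted p = 0.0916 in limma without the block, 0.000136 with it). VMP1, the gene that overlaps MIR21 upstream on the same strand, stood at 2820, 2850 and 2913 against 2692, 2964 and 2961, and was not called (log2 0.0046, adjusted p = 0.967 with the block), though its sign turned under quantile normalization. MIR27B stood at 115, 66.6 and 109 against 32.1, 47.5 and 59.1, a 2.10-fold fall (adjusted p = 0.176 without the block, 0.00915 with it). MIR130B stood at 35.5, 54.5 and 40.4 against 89.4, 110 and 69.1, a 2.05-fold rise (adjusted p = 0.122 without the block, 0.000407 with it), but a second, dimmer probe set of this gene gave a log2 fold change of 0.18 against 1.04. MIR31 and its host MIR31HG fell by 0.53 and 0.50, MIR31 losing its call without number 2 or 3 (adjusted p = 0.107 and 0.101). MIR4521 rose by 0.74.

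Of 154 long intergenic non-coding genes tested, 9 fell (5.84%, against 2.73% of all genes) and 1 rose (0.65%, against 1.69%). The list as a whole was not lower, with 80 higher, 74 lower and a median of 0.0061. The rise was LINC01133, from 30.5, 19.7 and 25.6 to 99.5, 45.9 and 48.3, a 2.43-fold change on a dim probe set (adjusted p = 0.171 in limma without the block, 0.000502 with it). LINC01347 stood at 770, 771 and 905 against 428, 540 and 573, a 1.59-fold fall (adjusted p = 0.0958 without the block, 0.000225 with it). Its 5 other kept probe sets gave log2 fold changes between -0.49 and -0.21. LINC01061 and LINC01000, which also fell, have 7 and 3 kept probe sets, and a dimmer probe set of LINC01000 gave -0.04. Whether these genes read shared signal was not tested. SUCNR1, the receptor for succinate, stood at 48.3, 24.8 and 32.2 against 20.8, 11.6 and 12.4, a 2.35-fold fall (adjusted p = 0.171 without the block, 0.000465 with it). On the FP001 arrays SUCNR1 lay below the array median, so it passed the filter through the normal-medium arrays alone, which favours a fall.

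Several lists showed few or no calls. In the lysosome and autophagy list of 18, the cell death list of 15 and the heat shock list of 6, no gene was called with the block, and the medians were -0.02, -0.04 and 0.03. Of 14 ATF4 targets DDIT4 alone was called, and of 8 genes in the list of endoplasmic reticulum chaperones XBP1 alone, a transcription factor for such chaperones, which fell by 0.51. Of 16 YAP and TAZ targets, CRIM1 rose by 0.29, and TGFB1I1 and AXL fell by 0.36 and 0.31. CRIM1 lost its call without number 3 (adjusted p = 0.1005). Of 14 lung lineage genes the water channel AQP3 alone was called, at -0.35, and it lost its call without number 3 (adjusted p = 0.183).

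Markers of the labelled cell type were checked on all 6 arrays. Of 7 epithelial markers 6 were named, each at or above the median of at least 1 array, and their summed intensity was 4445 to 4786 in normal medium and 5169 to 5721 with FP001, mostly from KRT18. Of 6 lung lineage markers 5 were named. Their sum was 127 to 142 against 125 to 162, and the surfactant gene SFTPA1 lay below every array's median. Of 7 fibroblast markers 3 were named, with sums of 80.4 to 313 against 134 to 493 that came mainly from LUM, and decorin, DCN, lay below every array's median. Of 8 leukocyte markers 4 were named, with sums of 559 to 709 against 620 to 841, mostly from the lysosomal CD68. Of 5 endothelial markers 3 were named, with sums of 51.2 to 55.9 against 55.8 to 71.5, and KDR lay below every array's median. The highest sum was that of FP001 replicate 2, where PECAM1 stood at 26.6, near the array median of 24.1. The B-cell lectin gene CD22, in the wider leukocyte list, stood at 73.2, 70.3 and 68.9 against 102, 142 and 145 and rose 1.81-fold (adjusted p = 0.0692 in limma without the block, 0.00158 with it). Whether other cells had a part in these values was not tested.

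The ordinary plates in normal medium give levels to set beside these. Attachment replicate 1 stood apart from the other 8 arrays (highest rank correlation -0.0019), so replicates 2 and 3 are given, with no test. JUN stood at 192 and 231 there and SNAR-B1 at 4228 and 4268, above both low-attachment groups. GDF15 stood at 1142 and 929, and MIR21 at 440 and 413, also above both groups, although with FP001 GDF15 was higher and MIR21 lower than in normal medium. C3 stood at 721 and 316 and BNIP3L at 1376 and 1154. KRT20 stood at 31.9 and 22.2 and TXNIP at 53.7 and 30.2 on the ordinary plates, so both were lower there than on all 6 low-attachment arrays. For TXNIP the gap was small, as FP001 replicate 2 stood at 54.9.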

How the data were processed

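From each sample 100 ng of total RNA was turned into biotinylated cRNA with a 3′ IVT kit, per the labels' protocols. The deposited values are linear intensities per probe set, and the submitters' processing notes name MAS5 as the authors' tool (version and settings not given in the sources used here). Of 53617 probe sets, 16098 had 1 gene symbol in GEO's platform annotation (0 had several, 37519 none), all matched by gene identifier to RefSeq. Log2 intensities were taken with no pseudocount or further normalization. A named probe set at or above the array median on at least 3 of the 6 arrays was kept (11588). The brightest stood for its gene where a gene had more than 1 (451 genes). Groups and numbers came from sample titles. limma 3.58.1 in R 4.3.3 (lmFit, eBayes with a trend) was fitted without and with the replicate block, two-sided, with Benjamini-Hochberg adjustment. The scripts were tested on simulated data. Every same-numbered pair's correlation was above 0.1 (0.49, 0.31 and 0.23), so the numbers were taken to pair the samples. Normal-medium number 2 with FP001 number 3 also lay above 0.1, at 0.14. The rule named, among called genes without overlap, the 10 that rose most and the 10 that fell most, up to 4 called members of each list (the brightest where none was called), JUN and GDF15. Others were chosen after their values were seen. Members, lists and rule were chosen with earlier results of these data known.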

Additional observations from a re-analysis of the deposited data

How the results depend on the processing

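Without the replicate block 10 genes were called, against 478 with it and 141 with the number as a random block. Quantile normalization with the block gave 427. Leaving the trend out of the variance prior gave 1 call without the block and 64 with it. Keeping the unnamed probe sets in the test gave 0 calls without the block (2722 at an unadjusted p under 0.05) and 73 with it, 27 of them among the 478. With attachment replicates 2 and 3 in the fit the block gave 141. Leaving out 1 array gave 1 to 12 calls without the block, and leaving out 1 number gave 430 to 949 with it. No filter gave 379 blocked calls, a pseudocount of 16 gave 480 and the mean of probe sets 477. The 18 lists with at least 5 members tested and a median of at least 0.1 in size kept their sign in all these settings. Genes near 0 turned sign. VMP1, at 0.0046, went to -0.032 under quantile normalization with or without the block, and ranged from -0.019 to 0.051 with 1 array left out and from -0.021 to 0.040 with 1 number left out of the blocked fit, being -0.0051 without number 3. For CTSD, a lysosomal protease, these ranges were -0.024 to 0.039 and -0.012 to 0.014. The heat shock gene HSPA1A went to 0.011 with centred arrays, and its ranges were -0.051 to 0.026 and -0.034 to 0.0087. The causes were not tested. The number of arrays, not a known depth, limits precision.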

Other observations

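Genes outside the lists, chosen after their values were seen, are given as values (log2 fold changes, called with the replicate block in limma), and stand for no group of genes. The cell-cycle genes MYBL2, a transcription factor of dividing cells, CENPU, of the centromere, RECQL4, a DNA helicase, CEP55, of the last step of division, and TRIP13, of the spindle checkpoint, rose by 0.44, 0.48, 0.46, 0.41 and 0.39, each without overlap between groups. RECQL4 lost its call without number 1 (adjusted p = 0.0860). KRT4, a keratin of stratified epithelia, stood at 198, 175 and 157 in normal medium and at 371, 235 and 242 with FP001 (0.65, adjusted p = 0.215 without the block, 0.00188 with it). SFN, the 14-3-3 protein of stratified epithelia, EMP1, an epithelial membrane protein, and VTCN1, an inhibitory ligand of T cells, rose by 0.44, 0.57 and 0.60. The vault RNA gene VTRNA1-3, like the snaR genes transcribed by RNA polymerase III, stood at 83.6, 95.5 and 105 against 142, 137 and 159 (0.63, adjusted p = 0.0916 without the block, 0.00157 with it).

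Some falls were chosen in the same way. CLK1, a kinase of splicing factors, stood at 77.8, 81.4 and 94.0 against 51.8, 61.4 and 70.1 (-0.47, adjusted p = 0.228 in limma without the block, 0.0145 with it). Cyclin L1, CCNL1, and RSRP1, of the arginine- and serine-rich proteins, fell by 0.49 and 0.44, and RSRP1 lost its call without number 1 (adjusted p = 0.0786). LENG8 stood at 256, 198 and 248 against 130, 141 and 155 (-0.72, adjusted p = 0.0720 without the block, 0.00126 with it). DBP, a clock output factor, fell by 0.57.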
